A study of Bos taurus with 30 samples.

Results

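The difference between caruncular and intercaruncular endometrium was measured in cows carrying a transferred embryo, taking 2 kinds of such pregnancy together. The SCNT group comprised 5 cows whose embryo came from somatic cell nuclear transfer, that is, cloning. The IVF-ET group comprised 4 cows with an embryo fertilised in vitro and then transferred. Each cow contributed 2 arrays with exchanged dyes, so 18 of the 30 arrays and 9 of the 15 animals of the series were used. A further IVF-ET cow (replicate 3) was left out because both of its arrays carried 1 dye orientation, and the cows pregnant after artificial insemination (AI) were not used. Breed, age and day of pregnancy are not given in the sources used here, and neither are the donor cells of the nuclear transfer embryos. Both tissues of an array came from the same cow, so each value is a ratio within 1 animal, and an animal counts once.

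The ruminant uterus attaches to the placenta at discrete sites, the caruncles, which are domes of dense stroma covered by luminal epithelium and without glands. The intercaruncular endometrium between them holds the uterine glands, whose secretions feed the conceptus. Extraembryonic cotyledons grow into the caruncles, so dissected caruncular tissue can carry placental cells.

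The deposited values were log ratios of the tissues on each array, taken here as log2, with between 27298 and 27643 of 27648 spots holding a value. Which tissue lies on the positive side of 0 was not settled by the labels, so genes are described by side. Caruncles lack glands, and the 6 gland epithelium markers measured did not settle it: LTF (0.45), PIGR (0.45) and RBP4 (0.42) passed the threshold on the positive side, whereas MUC1 (0.47, 7 of 9 animals positive), SERPINA14 (0.02, 4 positive) and SPP1 (-0.42, 3 positive) did not pass. The part of the signal common to both dye orientations had a correlation of 0.046 between neighbours on the array and of -0.032 (Spearman) with the order of printing, whereas for the part that followed the dyes both were 0.422. The means of the arrays with the caruncle in Cy3 and of those with it in Cy5 correlated at 0.243 over probes. Within animals the agreement varied: the 2 arrays correlated at 0.083, 0.107, 0.232, 0.300 and 0.654 in the SCNT animals and at 0.300, -0.013, -0.318 and -0.164 in the IVF-ET animals. SCNT replicate 5 stood apart by its spread, with an SD over probes of 0.701 against 0.216 to 0.320 in the other 8 animals, and by the lowest correlation with the mean of the others (0.122). The mean of the AI animals, which share no RNA with these 9, correlated with theirs at -0.334, and whether the AI values follow the same sign convention is not given in the labels. Taking the values as dye ratios and turning them to the tissues left 191 probes past the threshold, 3 of them among those described below, so every result here rests on the values being tissue ratios already.

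**Figure D1:**
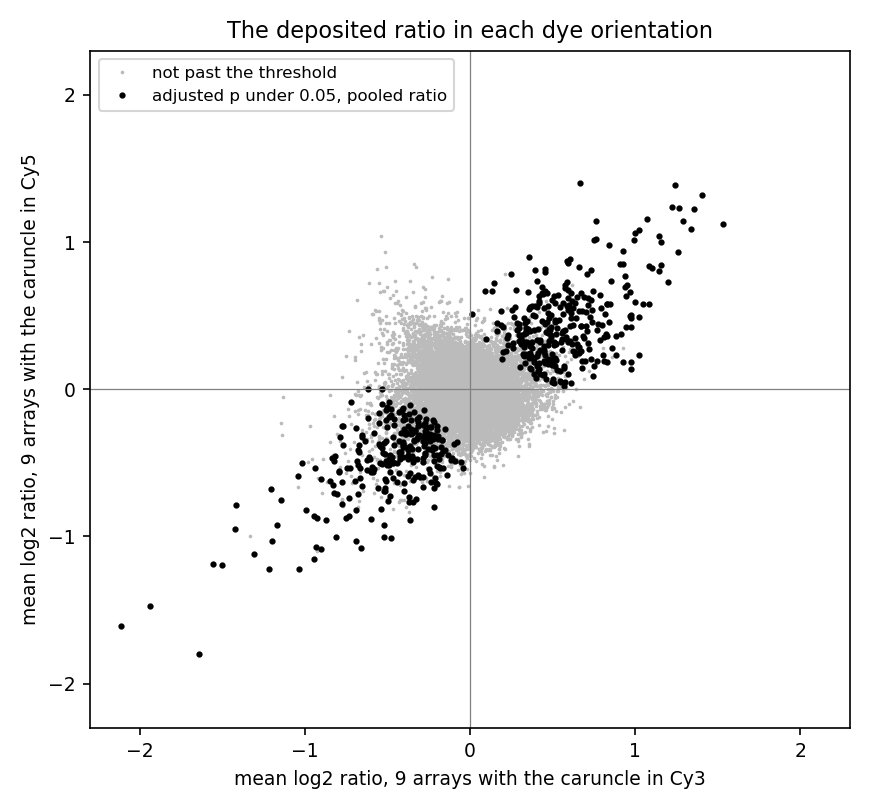
Pooled log2 ratio of each probe on the arrays with the caruncle in Cy3 and on the arrays with the caruncle in Cy5, averaged over 9 animals, with the 578 probes past the threshold marked. The marked probes were chosen on the mean of both orientations, and over all probes the 2 axes correlate at 0.243.

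A common difference between the tissues was found at 578 of 13820 probes tested (4.18%; limma against 0, Benjamini-Hochberg adjusted p under 0.05), 308 on the positive side (2.23%) and 270 on the negative side (1.95%). Without adjustment 2233 probes (16.2%) had a p under 0.05. Every animal lay on the same side at 596 probes (4.31%), and among the 578 this held for 209 positive and 199 negative probes. The size of the difference was moderate: the median absolute log2 ratio of the 578 was 0.453, the smallest was 0.199, and 31 reached 1 (17 positive and 14 negative). Counting 1 probe for each named gene, 364 of 8073 genes passed (4.51%), 195 positive (2.42%) and 169 negative (2.09%). The count depended on single animals: it was 378, 356 and 380 without SCNT replicates 1, 2 and 3, 1157 without SCNT replicate 5 (all 578 among them) and 350 without IVF-ET replicate 1. Adding IVF-ET replicate 3, whose 2 arrays correlated at -0.317, gave 504 calls as deposited, 882 with its first array turned and 0 with its second turned (1368 at an unadjusted p under 0.05, limma).

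The gene furthest to the positive side was HPGD (gene ID 512259), the dehydrogenase that inactivates prostaglandins. Its log2 ratio was 0.96, 1.62, 1.81, 1.72 and 1.95 in the SCNT animals, against 1.76, 0.38, 0.75 and 1.31 in the IVF-ET animals. All 9 animals were positive and the groups overlapped, with a mean of 1.36 ± 0.55 (SD, n = 9), a 2.57-fold ratio (adjusted p = 0.000791). CCN2 (281103), a matricellular protein also known as connective tissue growth factor, had the smallest SD among the positive named genes with a log2 ratio above 1. Its log2 ratio was 0.94, 1.07, 1.04, 1.06 and 1.77 in the SCNT animals, against 1.68, 0.66, 1.30 and 1.42 in the IVF-ET animals. The lowest animal stood at 0.66, and the mean was 1.22 ± 0.36, a 2.32-fold ratio (adjusted p = 0.000166). GUCY1B1 (282433), a subunit of the soluble guanylate cyclase that senses nitric oxide, had log2 ratios of 1.43, 2.08, 1.04, 1.14 and 1.38 in the SCNT animals, against 0.98, 0.84, 0.09 and 0.86 in the IVF-ET animals. It averaged 1.09 ± 0.54 (adjusted p = 0.00241) and was close to 0 in IVF-ET replicate 4 alone. MSX1 (286872), a homeobox factor of the uterine epithelium that is required with its paralogue for implantation in mice, was measured by 2 probes on the same side. Its log2 ratio was 1.11, 1.07, 1.25, 1.40 and 0.97 in the SCNT animals, against 0.82, 0.80, 0.68 and 0.56 in the IVF-ET animals. The highest IVF-ET animal lay below the lowest SCNT animal, and the pooled mean was 0.96 ± 0.27 (adjusted p = 0.000166). On single arrays the groups overlapped, with 0.30 and 1.91 in SCNT replicate 1 and 1.24 and -0.11 in IVF-ET replicate 5.

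The 12 positive genes singled out were those furthest from 0 among called genes with every animal on that side. The remaining ones covered transport, signalling and haem synthesis. SLC18A2 (282471), the vesicular monoamine transporter, averaged 1.12 ± 0.66 with animals from 0.45 to 2.27 (SD, n = 9; adjusted p = 0.00553). MCOLN2 (532671), a cation channel of endosomes and lysosomes, averaged 1.08 ± 0.51 with animals from 0.48 to 2.04 (adjusted p = 0.0022). ALAD (510679), an enzyme of haem synthesis, averaged 0.88 ± 0.32 with animals from 0.43 to 1.49 (adjusted p = 0.000714). MGP (282660), an inhibitor of calcification found in matrix, was the most scattered of them, averaging 1.03 ± 0.69 with animals from 0.03 to 2.17 (adjusted p = 0.0113). LOC613966 (613966) averaged 1.31 ± 0.51 and FRY (507622) 0.89 ± 0.47, both positive in 9 of 9 animals. EZR and GRB7 completed the positive genes and are described with the epithelial genes.

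On the negative side H19 (100126192), an imprinted noncoding RNA expressed from the maternal allele, lay furthest from 0. Its log2 ratio was -2.51, -2.99, -1.34, -2.13 and -3.37 in the SCNT animals, against -1.58, -0.99, -1.08 and -0.77 in the IVF-ET animals. All 9 animals were negative, 4 of 5 SCNT animals lay beyond every IVF-ET animal, and the mean was -1.86 ± 0.93, a 3.64-fold ratio (adjusted p = 0.00233). The 2 arrays of IVF-ET replicate 2 read 0.09 and -2.08 for H19. GJA1 (281193), the gap junction protein connexin 43, had the smallest adjusted p of all probes. Its log2 ratio was -1.92, -1.48, -1.70, -2.33 and -0.98 in the SCNT animals, against -1.88, -1.62, -2.06 and -1.53 in the IVF-ET animals. The groups overlapped fully, with a mean of -1.72 ± 0.39 and a 3.30-fold ratio (adjusted p = 6.03e-05). PTN (280904), a heparin-binding growth factor, had log2 ratios of -2.67, -1.86, -1.41, -1.67 and -1.69 in the SCNT animals, against -1.34, -1.82, -1.66 and -1.23 in the IVF-ET animals. Its mean was -1.71 ± 0.42, a 3.26-fold ratio (adjusted p = 7.67e-05), and no animal came nearer to 0 than -1.23. STRA6 (515911), the cell surface receptor that takes up retinol from its carrier RBP4, had log2 ratios of -1.43, -1.08, -0.91, -1.41 and -1.67 in the SCNT animals, against -1.33, -1.04, -0.99 and -0.19 in the IVF-ET animals. It averaged -1.12 ± 0.43 (adjusted p = 0.000714), with IVF-ET replicate 5 nearest to 0.

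Secreted inhibitors and matrix proteins made up most of the other large negative differences. SFRP1 (282068), a secreted WNT antagonist, had log2 ratios of -1.28, -2.11, -0.89, -1.24 and -1.34 in the SCNT animals, against -1.47, -1.21, -0.93 and -0.78 in the IVF-ET animals. It averaged -1.25 ± 0.40 (adjusted p = 0.000229), and its relative SFRP2 (510821) averaged -1.003 ± 0.54 (adjusted p = 0.00348). LOC513055 (513055) averaged -1.13 ± 0.37 (adjusted p = 0.000301), FAM13B (540987) -1.05 ± 0.41 (adjusted p = 0.000791) and the secreted olfactomedin-like protein OLFML3 (505318) -0.996 ± 0.53 (adjusted p = 0.00348). COL3A1 (510833), COL6A3 (530657) and IGFBP6 (404186) completed the negative genes. Of the 24 genes furthest from 0 among those with every animal on 1 side, 23 kept an adjusted p under 0.05 without any single animal. IGFBP6 (adjusted p = 0.0461) lost it without any animal other than SCNT replicate 5, with an adjusted p of up to 0.123.

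**Figure D2:**
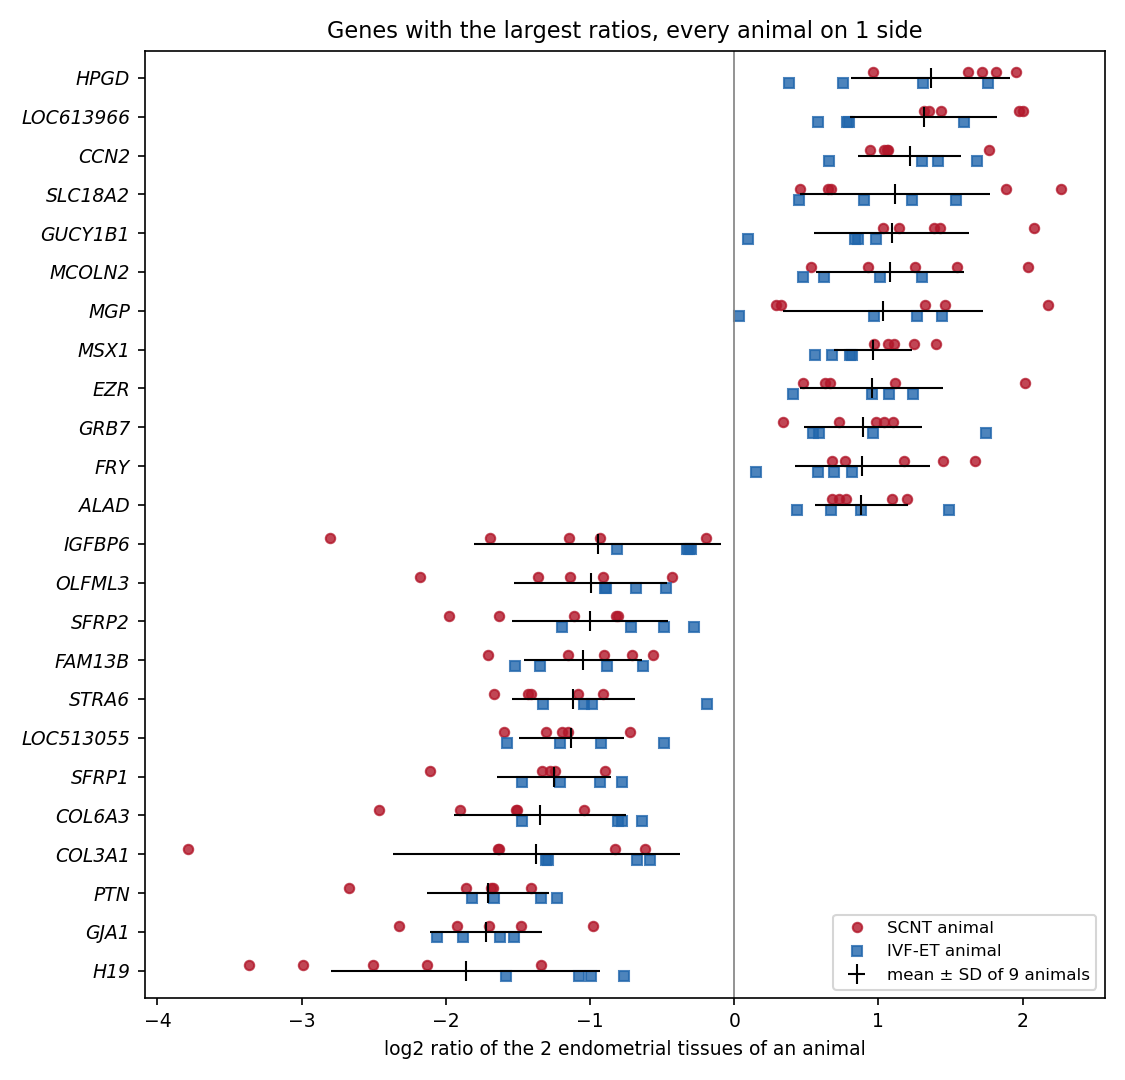
Log2 ratio between the tissues in each SCNT animal and each IVF-ET animal, with the mean of the 9 animals. Shown are the 12 genes furthest from 0 on each side among those past the threshold with every animal on that side. HPGD leads the positive side at 1.36 and H19 the negative side at -1.86. Every point lies on its gene's side of 0 because the genes were chosen that way.

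Genes of epithelial junctions and polarity lay towards the positive side. Of 44 measured, 11 passed on the positive side and 0 on the negative side, beside 2.42% and 2.09% of all genes, and the list median was 0.18 against -0.011 over all genes. EZR (281574), which links the apical membrane to actin, averaged 0.95 ± 0.50 with animals from 0.41 to 2.02 (adjusted p = 0.00318). GRB7 (508847), an adaptor that binds activated receptor kinases, averaged 0.89 ± 0.41 (adjusted p = 0.00202), and ERBB2, a receptor kinase that it binds, averaged 0.71 ± 0.44 (adjusted p = 0.00873). ESRP1, the splicing regulator that sets epithelial isoforms, averaged 0.70 ± 0.37 (adjusted p = 0.0042). The junction and cytoskeletal proteins CGN (0.66), CDH1 (0.66), PPL (0.60), DSP (0.60), KRT8 (0.46) and OCLN (0.45) also passed, as did the protease inhibitor SPINT2 (0.61). Among the 7 epithelium markers measured, 4 passed on the positive side. KRT18 (0.36), EPCAM (0.25) and KRT19 (0.085, 4 of 9 animals positive) did not pass. In the whole list 34 of 44 genes lay above 0, and the lowest stood at -0.52. SCNT replicate 5 had a list median of -0.16, and the other 8 animals had medians of 0.20 to 0.46. Without that animal 19 list members passed on the positive side. Fewer cells of a type in a tissue and less RNA per cell cannot be told apart in these bulk samples.

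Products of the uterine glands had calls on both sides. Of 18 measured, 4 passed on the positive side and 1 on the negative side, beside 2.42% and 2.09% of all genes. The list median was 0.03 against -0.011 over all genes, and 1 negative call is not a result about the list. CLU, a secreted chaperone, averaged 0.57 ± 0.45 (adjusted p = 0.0278). PIGR, which carries immunoglobulin A across epithelium, averaged 0.45 ± 0.30 (adjusted p = 0.0173). LTF, the iron-binding milk and mucosal protein lactoferrin, averaged 0.45 ± 0.32 (adjusted p = 0.0248). RBP4, the retinol carrier, averaged 0.42 ± 0.34 (adjusted p = 0.042). On the negative side stood DKK1, a secreted WNT antagonist, at -0.53 ± 0.33 (adjusted p = 0.01), the steadiest of the 5 when animals were left out. The positive calls depended on single animals, and without SCNT replicate 3 the list had 1 on each side. PIGR lost its call without IVF-ET replicate 1 (adjusted p = 0.0555). LTF lost it without SCNT replicate 1, 2 or 3 or IVF-ET replicate 1 or 5 (up to 0.0724), CLU without any animal but SCNT replicates 2 and 5 (up to 0.0778), and RBP4 without any but SCNT replicates 1 and 5 (up to 0.115). The gland marker SPP1, a secreted adhesion protein, averaged -0.42 (adjusted p = 0.354) and did not pass.

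Collagens and other stromal genes lay towards the negative side. Of the 16 measured members of the collagen list, 0 passed on the positive side and 5 on the negative side, beside 2.42% and 2.09% of all genes. The list median was -0.29 against -0.011 over all genes. COL3A1, a fibrillar collagen of soft connective tissue, had log2 ratios of -1.64, -0.83, -0.62, -1.63 and -3.79 in the SCNT animals, against -1.31, -1.29, -0.67 and -0.59 in the IVF-ET animals. Its mean was -1.37 ± 1.00 (adjusted p = 0.0157), and without SCNT replicate 5 it was -1.07 (adjusted p = 8.52e-05). COL6A3, of the beaded filament collagen, had log2 ratios of -1.90, -1.51, -1.04, -1.52 and -2.46 in the SCNT animals, against -1.47, -0.78, -0.81 and -0.64 in the IVF-ET animals. It averaged -1.35 ± 0.60 (adjusted p = 0.00145). The fibrillar collagen genes COL1A2 (-0.87) and COL1A1 (-0.66) passed as well. COL18A1 of basement membranes (-0.76) passed with all animals and lost its call without SCNT replicate 1, 2, 3 or 4 or IVF-ET replicate 1 or 5 (adjusted p up to 0.104). Outside the list, COL27A1 (-0.48), COL7A1 (-0.42) and COL11A2 (-0.40) also passed on the negative side, named after their values were seen.

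Of 53 fibroblast and matrix genes measured, 3 passed on the positive side and 19 on the negative side, beside 2.42% and 2.09% of all genes. The list median was -0.18 against -0.011 over all genes. The positive members were CCN2, MGP and the membrane metalloendopeptidase MME (0.58). Behind PTN, SFRP1, SFRP2, OLFML3 and IGFBP6, the negative members included components and regulators of elastic fibres, MFAP2 (-0.82), EMILIN1 (-0.78) and MFAP4 (-0.55), and of collagen processing, SERPINH1 (-0.54) and LOXL2 (-0.52). The matricellular genes SPON1 (-0.94), SPARCL1 (-0.64), SPARC (-0.52) and TNC (-0.41) passed too. MDK, the heparin-binding relative of PTN, averaged -0.74 ± 0.41 (adjusted p = 0.00439), and the fibroblast surface protein THY1 stood at -0.74. The transcription factors SNAI2 (-0.65) and NR2F2 (-0.56) and the proteoglycan DCN (-0.72) completed the list. DCN reached -2.36 in SCNT replicate 5, -0.79 in the next animal, and lost its call without any animal other than SCNT replicate 5 (adjusted p up to 0.112). Among the 6 stromal markers measured, 4 passed on the negative side, while VIM (0.02) and LUM (-0.33) did not pass.

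**Figure D3:**
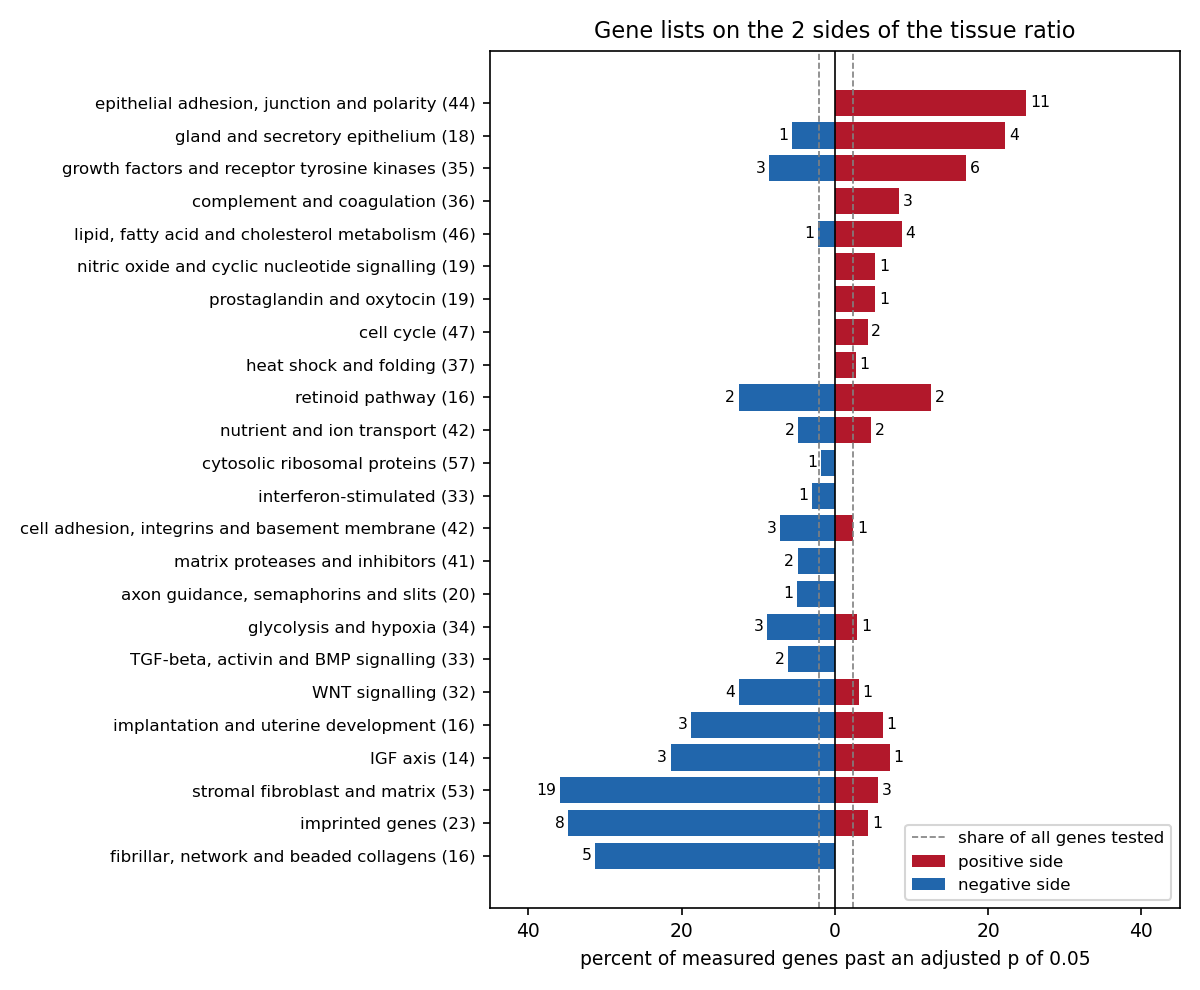
Percent of the measured genes of each list past the threshold on the positive side and on the negative side of the pooled ratio, for lists with at least 1 call. Numbers beside the bars are the genes called, those in brackets the genes measured, and dashed lines the shares over all genes (2.42% and 2.09%). Epithelial junction genes have 11 positive and 0 negative calls, fibroblast and matrix genes 3 and 19, collagens 0 and 5.

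Secreted signals and their receptors were found on both sides, beside 2.42% of all genes called positive and 2.09% called negative. In the WNT list 1 of 32 passed on the positive side, the corepressor TLE1 (0.64), and 4 on the negative side, the secreted antagonists SFRP1, SFRP2 and DKK1 and the nuclear effector TCF7L2 (-0.46). No WNT ligand or Frizzled receptor measured here passed. With so small a share of all genes called, this absence is not a result about them. Of 35 growth factor and receptor kinase genes, 6 passed on the positive side and 3 on the negative side, with a median of 0.02. IL6R, the interleukin 6 receptor, had log2 ratios of 1.41, 1.11, 1.32, 1.44 and -0.08 in the SCNT animals, against 1.18, 0.96, 0.59 and 1.56 in the IVF-ET animals. It averaged 1.05 ± 0.52 (adjusted p = 0.00236), with only SCNT replicate 5 below 0. The other positive members were the ligand PDGFA (0.65) and the receptor kinases ERBB2 (0.71), DDR1 (0.57) and FGFR1 (0.24) with the adaptor GRB7, and the negative members were the ligands PTN and MDK and the neurotrophin receptor NTRK2 (-0.60). Of 33 genes of the TGF-beta family, 0 passed on the positive side and 2 on the negative side. FST, the activin antagonist follistatin, averaged -0.91 ± 0.35 (adjusted p = 0.000812), with log2 ratios of -1.44, -1.07, -1.22, -1.15 and -0.54 in the SCNT animals, against -0.61, -0.85, -0.91 and -0.37 in the IVF-ET animals. BMP4, a ligand of the family, averaged -0.41 ± 0.34 (adjusted p = 0.0445) and lost its call without any animal but SCNT replicate 5 and IVF-ET replicate 2 (adjusted p up to 0.105).

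In the insulin-like growth factor (IGF) axis, 1 of 14 passed on the positive side and 3 on the negative side, beside 2.42% and 2.09% of all genes. The positive gene was IGFBP1, an IGF-binding protein secreted by ruminant luminal epithelium, at 0.64 ± 0.56 (adjusted p = 0.0431). The negative genes were the binding proteins IGFBP6 and IGFBP3 (-0.48 ± 0.38; adjusted p = 0.0338) and the growth factor IGF2. IGF2 had log2 ratios of -0.80, -0.58, -0.79, -0.80 and -0.96 in the SCNT animals, against -0.64, 0.08, -0.04 and 0.05 in the IVF-ET animals. All SCNT animals were at -0.58 or lower, 3 of 4 IVF-ET animals were within 0.08 of 0, and the pooled mean was -0.50 ± 0.41 (adjusted p = 0.0395). All 4 genes lost their calls without some single animals: IGFBP1 without SCNT replicate 2, 3 or 4 or IVF-ET replicate 1 or 5 (adjusted p up to 0.109), IGFBP3 without SCNT replicate 1, 3 or 4 or IVF-ET replicate 2 or 4 (up to 0.0931), and IGF2 without SCNT replicate 1, 2, 3 or 4 or IVF-ET replicate 1 (up to 0.104). Without SCNT replicate 3, 0 genes of this list passed.

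Imprinted genes, which are expressed from 1 parental allele and regulate placental and fetal growth, lay on the negative side where they passed, with 1 exception. Of 23 measured, 1 passed on the positive side and 8 on the negative side, beside 2.42% and 2.09% of all genes, and the list median was -0.01. Besides H19, IGF2 and DCN (imprinted in mice), the negative members were XIST (-0.48), PLAGL1 (-0.43), NDN (-0.39), PEG3 (-0.29) and SGCE (-0.28), and the positive member was the small GTPase DIRAS3 (0.41). XIST, the noncoding RNA that silences an X chromosome, averaged -0.48 ± 0.25 (adjusted p = 0.00495). It was counted with this list although it is not imprinted in adult tissues. In the trophoblast list 0 of 25 genes passed, which beside 4.51% of all genes called is not a result about the list. It lay furthest to the same side in 1 animal: the list median was -0.23, and it was -1.02 in SCNT replicate 3 against -0.21 to 0.14 in the other 8 animals. All 6 trophoblast markers measured had pooled means below 0, from -0.66 to -0.11, led by PAG2 (-0.66) and TKDP1 (-0.64), which are products of the ruminant trophoblast. Single markers were far below 0 in 2 SCNT animals: PAG2 stood at -2.82 in SCNT replicate 3 and -2.42 in SCNT replicate 4, while the other 7 animals ranged from -0.34 to 0.08. H19 was -2.13 and IGF2 -0.80 in SCNT replicate 4. H19 was -1.34 in SCNT replicate 3, the SCNT value nearest to 0, and without that animal its pooled ratio was -1.93 (adjusted p = 0.00644). IGF2 was -0.46 without it (adjusted p = 0.102), and 1 imprinted gene passed on the positive side and 5 on the negative side. The part of trophoblast RNA in the ratios of H19, IGF2 and the other imprinted genes was not tested.

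**Figure D4:**
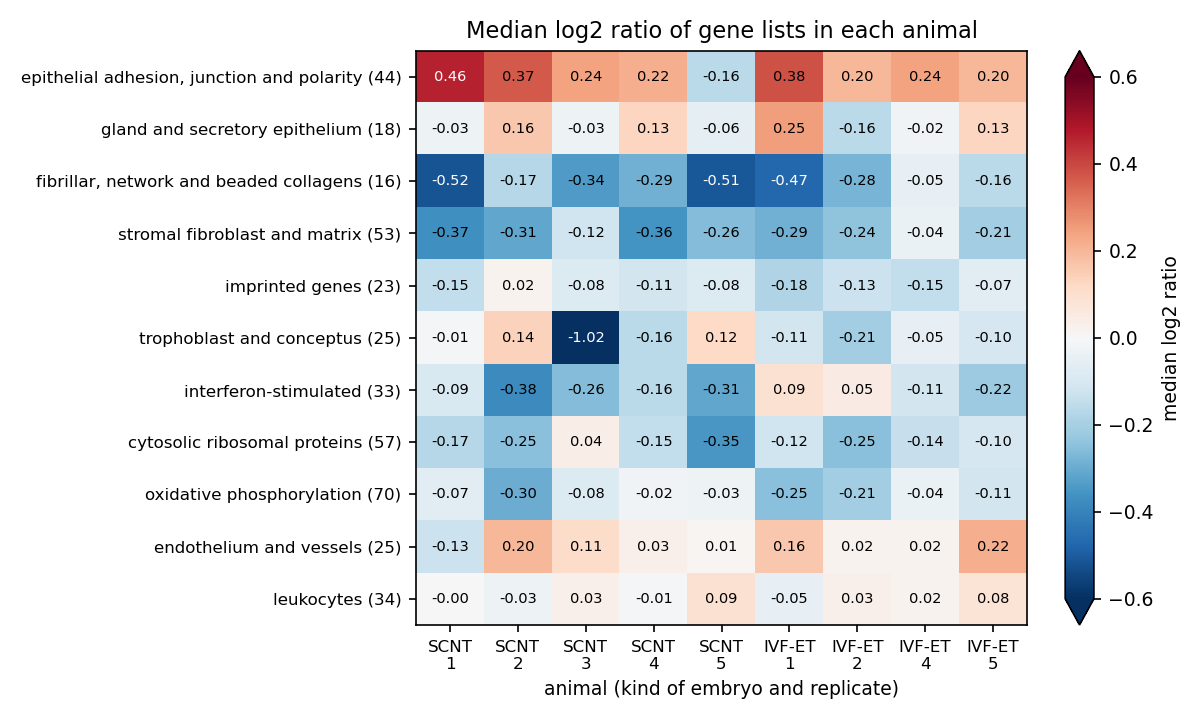
Median log2 ratio of the measured genes of each list in each SCNT animal and each IVF-ET animal. The trophoblast list lies at -1.02 in SCNT replicate 3, and the epithelial junction list at -0.16 in SCNT replicate 5 and at 0.20 or above in the other animals.

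Among genes of implantation and uterine development, 1 of 16 passed on the positive side, MSX1, and 3 on the negative side, FST, NR2F2 (-0.56) and HOXA9 (-0.59). Over all genes 2.42% were called on the positive side and 2.09% on the negative side. NR2F2 is a nuclear receptor of the uterine stroma and HOXA9 a patterning gene of the reproductive tract. HOXA9 lost its call without SCNT replicate 1, 2, 3 or 4 or IVF-ET replicate 1 or 4 (adjusted p up to 0.0738). The prostaglandin and oxytocin list had 1 positive call among 19, HPGD, and a median of -0.00. The nitric oxide and cyclic nucleotide list likewise had 1 among 19, GUCY1B1. With 2.42% of all genes called on the positive side, 1 call among 19 is not a result about a list. In the retinoid pathway 2 of 16 passed on the positive side, RBP4 and the retinal reductase DHRS3 (0.55 ± 0.37; adjusted p = 0.0148), and 2 on the negative side, STRA6 and the intracellular carrier CRABP2 (-0.51 ± 0.28; adjusted p = 0.00663). The RBP4 carrier and its receptor STRA6 therefore stood on different sides in the pooled mean. The RBP4 call was lost without any animal but SCNT replicates 1 and 5 (adjusted p up to 0.115, limma).

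Lipid genes gave 4 positive calls and 1 negative call among 46, with a median of -0.04. The positive members handle fatty acids and carnitine: SLC27A6, a fatty acid transporter, averaged 1.03 ± 0.81 (adjusted p = 0.0237), SLC22A5, the carnitine transporter, 0.80 ± 0.47 (adjusted p = 0.006), FADS2, a fatty acid desaturase, 0.80 ± 0.41 (adjusted p = 0.00316), and the acyl-CoA synthetase ACSL1 0.37. The negative member was the endothelial lipase LIPG at -0.74 ± 0.45 (adjusted p = 0.00809). SLC27A6 lost its call without SCNT replicate 1, 3 or 4 or IVF-ET replicate 1 (adjusted p up to 0.0722). In glycolysis and hypoxia 1 of 34 passed on the positive side, the glycolytic regulator PFKFB3 (0.61 ± 0.27; adjusted p = 0.00233), and 3 on the negative side: the vasodilator peptide ADM (-0.56), the haem oxygenase HMOX1 (-0.48) and the lactate dehydrogenase subunit LDHB (-0.29). LDHB lost its call without any animal but SCNT replicates 3 and 5 (adjusted p up to 0.13). Nutrient and ion transport had 2 positive calls among 42, SLC22A5 and the sodium pump subunit ATP1B1 (0.33), and 2 negative calls, the potassium channel subunit KCNJ8 (-0.58 ± 0.24; adjusted p = 0.00197) and the iron exporter SLC40A1 (-0.42). ATP1B1 lost its call without any animal other than SCNT replicate 5 (adjusted p up to 0.105). The shares over all genes (2.42% positive and 2.09% negative) would themselves give few calls in lists of this size. Low counts are therefore not a result about these lists.

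Cell adhesion and basement membrane genes gave 1 positive call among 42, the laminin receptor subunit ITGA7 (0.63), and 3 negative calls, GJA1, the heparan sulphate proteoglycan SDC2 (-0.49 ± 0.17; adjusted p = 0.00153) and the laminin chain LAMA4 (-0.27). Of 41 matrix proteases and inhibitors 0 passed on the positive side and 2 on the negative side, the gelatinase MMP2 (-0.65 ± 0.44; adjusted p = 0.0138) and the cathepsin CTSK (-0.35). The calls of ITGA7, LAMA4 and CTSK were lost without some single animals (6, 4 and 7 of the 9; adjusted p up to 0.105, 0.069 and 0.129), SCNT replicate 5 in none of these cases. Complement and coagulation gave 3 positive calls among 36: the complement protease CFI (0.58), the coagulation factor F5 (0.56) and the complement inhibitor CD59 (0.40). CD59 kept its call without any single animal, whereas CFI and F5 lost theirs without 5 and 6 of the 9 animals (adjusted p up to 0.086 and 0.082), again not without SCNT replicate 5. The cell cycle list had 2 positive calls among 47, the replication licensing inhibitor GMNN (0.51) and the ribonucleotide reductase subunit RRM1 (0.40), the second lost without SCNT replicate 2, 3 or 4 or IVF-ET replicate 1 or 5 (adjusted p up to 0.0866). The small heat shock protein HSPB8 (0.54; 1 of 37 on the positive side) and the guidance receptor ROBO1 (-0.60; 1 of 20 on the negative side) were the single calls of their lists. Beside 2.42% of all genes on the positive side and 2.09% on the negative side, counts this small are not a result about these lists.

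For lists of other cell types and of core machinery, the share called over all genes (4.51%) would itself give few calls, so their low counts are not a result about these lists. No gene passed (limma) among 34 leukocyte, 25 endothelial, 18 smooth muscle, 7 red blood cell, 16 antigen presentation, 20 steroid hormone signalling and 34 proteasome genes, with list medians between -0.09 and 0.06. The 70 oxidative phosphorylation genes also had 0 calls, with a median of -0.17, and the 57 cytosolic ribosomal protein genes had 1, RPL7A on the negative side (-0.36), with a median of -0.19. Without SCNT replicate 5, 11 oxidative phosphorylation and 9 ribosomal protein genes passed on the negative side. RPL7A lost its call without SCNT replicate 4 or IVF-ET replicate 4 or 5 (adjusted p up to 0.0546). The interferon-stimulated list, which includes genes that respond to the ruminant pregnancy signal interferon tau, had 0 positive calls and 1 negative call among 33, the DNA sensor IFI16 (-0.30), lost without SCNT replicate 1, 2, 3 or 4 or IVF-ET replicate 1 or 4 (adjusted p up to 0.094). Its median was -0.28 in the SCNT animals and 0.00 in the IVF-ET animals, a difference that was not tested. Across the 33 lists, 96 of 975 measured genes passed, 42 positive and 54 negative, beside 4.51% of all genes (2.42% positive and 2.09% negative). The lists were chosen with earlier results known.

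Probes called in 1 kind of pregnancy were then read in the other, which shares no animal with it. The SCNT animals alone gave 73 calls (0.528%), and all 73 lay on the same side in the IVF-ET animals, 61 of them with an unadjusted p under 0.05 and 24 past the adjusted threshold. Their median log2 ratio towards that side was 0.61 in the IVF-ET animals, where they had not been chosen, and 0.95 in the SCNT animals, where they had. The IVF-ET animals alone gave 106 calls (0.767%), of which 105 lay on the same side in the SCNT animals, 88 with an unadjusted p under 0.05 and 24 past the adjusted threshold, with a median of 0.67 in both groups. Over all 13820 probes, on either side, 1807 had an unadjusted p under 0.05 in the IVF-ET animals alone and 1549 in the SCNT animals alone (limma). The share of all probes on the same side in both groups was not computed. The 2 mean profiles correlated at r = 0.454 over all probes. Each set was sensitive to its animals: without 1 animal the SCNT count ran from 0 to 514, the highest without replicate 5 and 0 without replicate 2, 3 or 4 (1196 to 1240 probes at an unadjusted p under 0.05, limma), and the IVF-ET count from 6 without replicate 1 to 81 without replicate 5.

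The size of the regional difference was compared between SCNT and IVF-ET pregnancies. No probe passed for the difference (0 of 13820, limma; smallest adjusted p 0.875), and 673 (4.87%) had an unadjusted p under 0.05. Among the 578 probes with a common difference 53 (9.17%) had an unadjusted p under 0.05. The mean was further from 0 in the SCNT animals at 428 of the 578, and at 419 without SCNT replicate 5. The median absolute mean of the 578 was 0.498 in the SCNT animals and 0.380 in the IVF-ET animals. These probes were chosen on a mean of 5 SCNT and 4 IVF-ET animals, in which the SCNT animals weigh more. The same share over all probes was not computed, so these values are not a result about the kind of pregnancy. H19 differed by -1.36 ± 0.35 (SE), with a mean of -2.47 in the SCNT animals and -1.10 in the IVF-ET animals (unadjusted p = 0.00284, adjusted p = 0.875). IGF2, its neighbour in the same imprinted cluster, had means of -0.78 in the SCNT animals and -0.14 in the IVF-ET animals (unadjusted p = 0.00181, adjusted p = 0.875). The trophoblast markers measured lay the same way, by differing amounts. PAG2, far below 0 in SCNT replicates 3 and 4, had means of -1.04 in the SCNT animals and -0.18 in the IVF-ET animals. In the same order TKDP1 had means of -1.08 and -0.09 and TKDP4 of -0.97 and -0.14. The gaps were smaller for PAG8 (-0.43 and 0.01), PRP1 (-0.27 and -0.13) and CSH2 (-0.14 and -0.07). The median of the trophoblast list was -0.19 in the SCNT animals, -0.16 in SCNT replicate 4 and -0.11 in the IVF-ET animals. The part of trophoblast RNA in the H19 and IGF2 differences was not tested. MSX1 had means of 1.16 in the SCNT animals and 0.72 in the IVF-ET animals (unadjusted p = 0.00317, adjusted p = 0.875). The smallest p of all named genes belonged to PPP3CB, a catalytic subunit of the phosphatase calcineurin, with log2 ratios of -0.04, -0.10, -0.01, 0.06 and 0.03 in the SCNT animals, against -0.46, -0.55, -0.39 and -0.47 in the IVF-ET animals. Its 2 arrays were close in IVF-ET replicate 1 (-0.43 and -0.48). They differed in replicate 2 (-0.95 and -0.15), replicate 4 (-0.04 and -0.74) and replicate 5 (0.08 and -1.02). PCP4, a calmodulin regulator, had means of 0.16 in the SCNT animals and -0.41 in the IVF-ET animals, and MSRB3, a methionine sulphoxide reductase, 0.27 in the SCNT animals and -0.37 in the IVF-ET animals. MSRB3 followed the dyes, with a mean of -0.39 with the caruncle in Cy3 and 0.36 with it in Cy5. Its 2 probes had pooled means on different sides of 0. None of the differences at these 6 genes held after adjustment over all probes.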

How the data were processed

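Per the labels, total RNA of both tissues of each animal was converted to aminoallyl cDNA with oligo-dT primers and coupled to Cy3 or Cy5. The deposited values were signed log ratios per spot, read here as log2 ratios already turned to the tissues. The base, channel order and normalisation are not given in the sources used here, and no column belonged to other samples (0). Adjacent duplicate spots shared their accession in 8750 of 8750 annotated pairs and were averaged (27648 spots, 13824 probes). The platform annotation named 8645 probes with 1 symbol, 105 had several and 5074 were not listed. Of the annotated probes, 8620 matched a gene ID in the RefSeq table of ARS-UCD2.0.

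Arrays were centred on their median and the 2 dye-swapped arrays of an animal were averaged. Probes with a value in at least 4 of 5 SCNT and 3 of 4 IVF-ET animals were tested (13820) with lmFit and eBayes of limma 3.58.1 in R 4.3.3, two-sided, with Benjamini-Hochberg adjustment and a threshold of 0.05. On simulated data of the pooled ratio with 13820 probes, 76% of 100 probes changed by 0.5 and 97% of 100 changed by 1 on the log2 scale were recovered, with 9 false calls. The simulated noise was independent between probes and equally wide in all animals, whereas SCNT replicate 5 had a wider spread than the others. These figures therefore need not hold for the real data. Tables used pandas 2.3.3 and numpy 2.4.6, and figures matplotlib 3.10.9. Signal over background is unknown without scanner intensities, and the number of animals limits the precision.

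Genes named were the 12 furthest from 0 on each side past the threshold with 9 of 9 animals on that side, up to 4 per list, and the 3 smallest p of the group difference. Further members and all genes of the closing paragraphs were named after their values were seen. The members, lists and tests were chosen with earlier results of these data known, so the lists are described by counts and medians. Where several probes shared a symbol, the one with most values stood for the gene. Of 29 called genes with several probes, 24 had all probes on 1 side. Alternatives left out each animal and changed the centring, scaling, spots, weights, dye reading and treatment of IVF-ET replicate 3.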

Additional observations from a re-analysis of the deposited data

Results flagged for a closer look

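Of 108 sets of 9 animal values tested (75 named genes and 33 list medians), 13 had 1 animal apart from the others by Dixon's criterion, which chance meets in about 1 of 20 groups. SCNT replicate 5 accounted for 8 of the 13. In that animal COL3A1 stood at -3.79 (nearest other animal -1.64), DCN at -2.36 (-0.79), HOXA9 at -1.76 (-0.67), MDK at -1.63 (-0.97) and RPL7A at -0.93 (-0.46). The same animal had list medians of -0.16 for epithelial junction genes (nearest 0.20), 0.17 for red blood cell genes (-0.01) and -0.30 for proteasome genes (-0.13). SCNT replicate 1 stood at -2.67 for PTN (nearest -1.86) and at -1.43 for ROBO1 (-0.72). IVF-ET replicate 1 stood at 1.65 for F5 (nearest 0.91). The trophoblast list had a median of -1.02 in SCNT replicate 3 (nearest -0.21), and the complement and coagulation list one of 0.12 in SCNT replicate 2 (nearest 0.06).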

How the results depend on the processing

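Read as dye ratios, 191 probes passed (36 positive and 155 negative), and 17 list genes in place of 96. Keeping IVF-ET replicate 3 gave 504 calls as deposited, 882 with its first array turned, and 0 with its second array turned (1368 at an unadjusted p under 0.05, limma), where 0 list genes passed. Arrays with the intercaruncle in Cy3 alone gave 385 calls. Animals whose 2 arrays correlated above 0, chosen after the data were examined (all 5 SCNT animals and IVF-ET replicate 1), gave 328 calls and 62 list genes. The SCNT animals alone gave 73 calls and 18 list genes, and the IVF-ET animals alone 106 and 35. Without single animals the pooled count ran from 350 to 1157, the list genes from 68 to 177, the SCNT count from 0 to 514 and the IVF-ET count from 6 to 81. The other settings gave between 410 and 832 calls. The difference between SCNT and IVF-ET had 0 calls under every alternative run. All 72 named genes past the threshold lost their call when the values were read as dye ratios or the second array of IVF-ET replicate 3 was turned, 49 kept it without any single animal, and no named gene changed side past the threshold. SCNT and IVF-ET animals could not be paired with each other, because replicate numbers were given in accession order and name different animals. The causes of these shifts were not tested.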

Other observations

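Further genes with 9 of 9 animals on 1 side lay outside the lists. The positive side included BPIFB1, a secreted mucosal defence protein (0.83), the water channel AQP4 (0.71) and the lysosomal ganglioside activator GM2A (0.67). Metabolic enzymes on that side were the spermine synthase SMS (0.82), the alanine transaminase GPT2 (0.62) and the membrane electron carrier CYB561 (0.67). MPPED2 (0.88), RALGPS1 (0.79), the endoplasmic reticulum protein RTN3 (0.74), the stress gene GADD45A (0.63) and the axonemal protein SPAG6 (0.67) also lay there. On the negative side stood regulators of the cytoskeleton, ARHGAP10 (-0.91) and the actin bundler FSCN1 (-0.70), the pseudokinase PTK7 of planar polarity (-0.78) and PPP2R2B, a regulatory subunit of a phosphatase (-0.88). The lipolysis inhibitor G0S2 (-0.76), the monoamine oxidase MAOB (-0.60) and the matrix genes AEBP1 (-0.66) and SMOC2 (-0.63) lay on the same side. MAOB degrades amines and SLC18A2, on the positive side, stores them in vesicles.

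The largest positive named gene left out of the 12 by the side criterion was SLC16A11, a monocarboxylate transporter relative, at 1.22 with 8 of 9 animals positive (adjusted p = 0.0122), followed by IL6R and SLC27A6. Of the 578 probes, 189 were not listed in the annotation and stay unnamed here.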
